A study of Schizosaccharomyces pombe with 4 samples.

Results

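The core environmental stress response genes are a group of fission yeast genes that are induced together by many kinds of stress, here without the heat-shock proteins. They were followed in the *sim3* mutants on arrays of *Schizosaccharomyces pombe* open reading frames. The members were a fixed list of 41 systematic IDs, chosen with earlier results of these data known. They were found on the arrays by ID or by symbol. The list pairs the symbol *tpp1* with SPAC3G6.09c, which the gene table calls *tps2*, so *tpp1* (SPAC19G12.15c) was looked for as well, which made 42 genes. Of these, 30 were found by ID, 7 by the listed symbol, 2 by their current symbol and 1 (*ctt1*, printed as *cta1*) by a synonym. The products of SPCC16A11.15c and SPAC139.05 were marked as missing from the print. The remaining 40 of the 4870 genes on the arrays were measured.

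In fission yeast, many stresses activate the mitogen-activated protein kinase Sty1, which phosphorylates the bZIP transcription factor Atf1. Atf1 then drives a shared set of genes for antioxidant enzymes, carbohydrate metabolism and protein homeostasis, while the phosphatases Pyp1 and Pyp2 turn the kinase off again. A second bZIP factor, Pap1, and the response regulator Prr1 act on many of the genes for defence against oxidants.

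The study asked whether defects in Sim3, a NASP-related histone chaperone that binds CENP-A, change gene expression. Logarithmically growing cells with the mutant allele *sim3-143* or *sim3-205* were each compared with wild-type cells on 2 arrays, so that there were 4 arrays in all. Both alleles change residues of the protein and leave the gene in place, so the level of *sim3* mRNA does not check the labels. The sources used here give no growth temperature for these cultures, and do not state whether the arrays came from separate cultures or whether both alleles were set against the same wild-type RNA. Thus n = 2 counts arrays, and p-values measure the spread between these arrays, which may be technical.

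On replicate 1 of each allele the mutant cDNA carried Cy3, and on replicate 2 it carried Cy5. The array of *sim3-205* replicate 2 was deposited under a different array platform from the other arrays. Each probe was printed in 2 spots, and each value below is the log2 of mutant over wild-type, corrected for background and normalized between the dyes. The gene names deposited for *sim3-143* replicate 2 and *sim3-205* replicate 1 do not follow the printed spots, with only 51 of 5760 positions named as in the layout of *sim3-143* replicate 1. Genes were therefore named by grid position on every array. In 3 of 32 grids of *sim3-205* replicate 1 (grids 21, 25 and 29) the dyes were unrelated, with Spearman correlations between -0.121 and 0.117 across spots. The members *ish1*, *tpp1* and *wwm3* lie in these grids. No spot of a member was dim in both dyes on any array, but on *sim3-205* replicate 1 the wild-type channel of *ish1* was below its local background (net intensity -60) and that of *wwm3* barely above it (11.5).

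As a group the members were higher in both mutants, but no member passed the limma test across all genes. Because earlier results of these data were known when the list was chosen, its comparisons with all genes are descriptions and no independent test. The median log2 ratio of the 40 members was 0.39 in *sim3-143* and 0.25 in *sim3-205*, against medians over all genes of -0.01 and 0.01. On single arrays, the members' median was 0.21 on replicate 1 and 0.45 on replicate 2 of *sim3-143*, and 0.26 and 0.20 on those of *sim3-205*. The medians over all genes of the same arrays were at most 0.02, so the members' median was above it on each array. On average over both alleles, 30 of the 40 members were above 0, against 50.7% of 4833 genes with values on every array, and 12 were higher by more than 1.5-fold, against 3.43% of all genes. None was lower by more than 1.5-fold on this average.

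**Figure D1:**
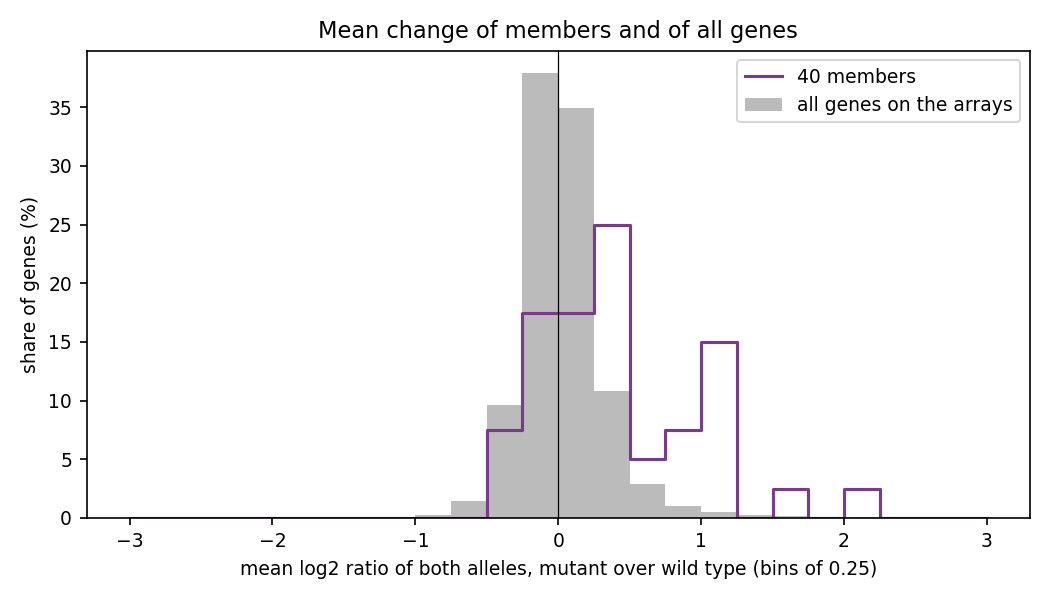
Share of genes (%, y axis) by mean log2 ratio of both alleles, mutant over wild-type (x axis, bins of 0.25), for all genes on the arrays (bars) and for the 40 members (line). The bin from 1 to 1.25 holds 15.0% of the members and 0.538% of all genes, and no member lies below -0.5.

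A gene was counted as past 1.5-fold when 3 or more of the 4 spots of an allele were beyond it in one direction. By this count 8 members were higher in *sim3-143*, which is 20% of them against 2.11% of all genes, and none was lower, against 1.38%. In *sim3-205*, 9 members were higher (22.5%, against 2.55% of all genes), and 1 was lower (2.5%, against 0.617%). The members *zym1*, *obr1*, *gpx1*, *rtc3*, *lsd90* and SPCC663.08c were past 1.5-fold in each allele. These 6 make up 15.0% of the members, against 0.724% of all genes. *osr1* and SPBC23G7.10c were counted in *sim3-143* and not in *sim3-205*, and *pbi2*, *ish1* and SPAC27D7.10c in *sim3-205* and not in *sim3-143*. Of the 40 members, 19 were above wild-type on every array (47.5%, against 11.6% of all genes), and only *mug147* was below on every array (2.5%, against 10.5%). Among the 50 genes with the highest mean over both alleles, 7 were members, while members make up 0.828% of all genes.

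limma with Benjamini-Hochberg adjustment over 4833 genes called no member and no other gene in either allele, in the mean of both, or in the difference between the alleles (percent called 0 in each). At an unadjusted p below 0.05, 14 members were higher in *sim3-143*, against 5.32% of all genes, and none was lower, against 3.46%. In *sim3-205* there were 13 higher, against 5.90% of all genes, and 2 lower, against 2.92%. For the mean of both alleles there were 17 higher, against 6.70% of all genes, and 1 lower, against 4.86%. For the difference between the alleles no member reached this level in either direction, against 2.96% of all genes higher in *sim3-205* and 2.09% lower. When the grids with unrelated dyes were left out, which left 37 members on 4 arrays, limma called 4 members higher in the mean of both alleles, against 0.523% of 4396 genes. These were *obr1* (adjusted p = 0.0127), SPCC663.08c (adjusted p = 0.0213), *gpx1* and SPAC27D7.10c (both with adjusted p = 0.0463).

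**Figure D2:**
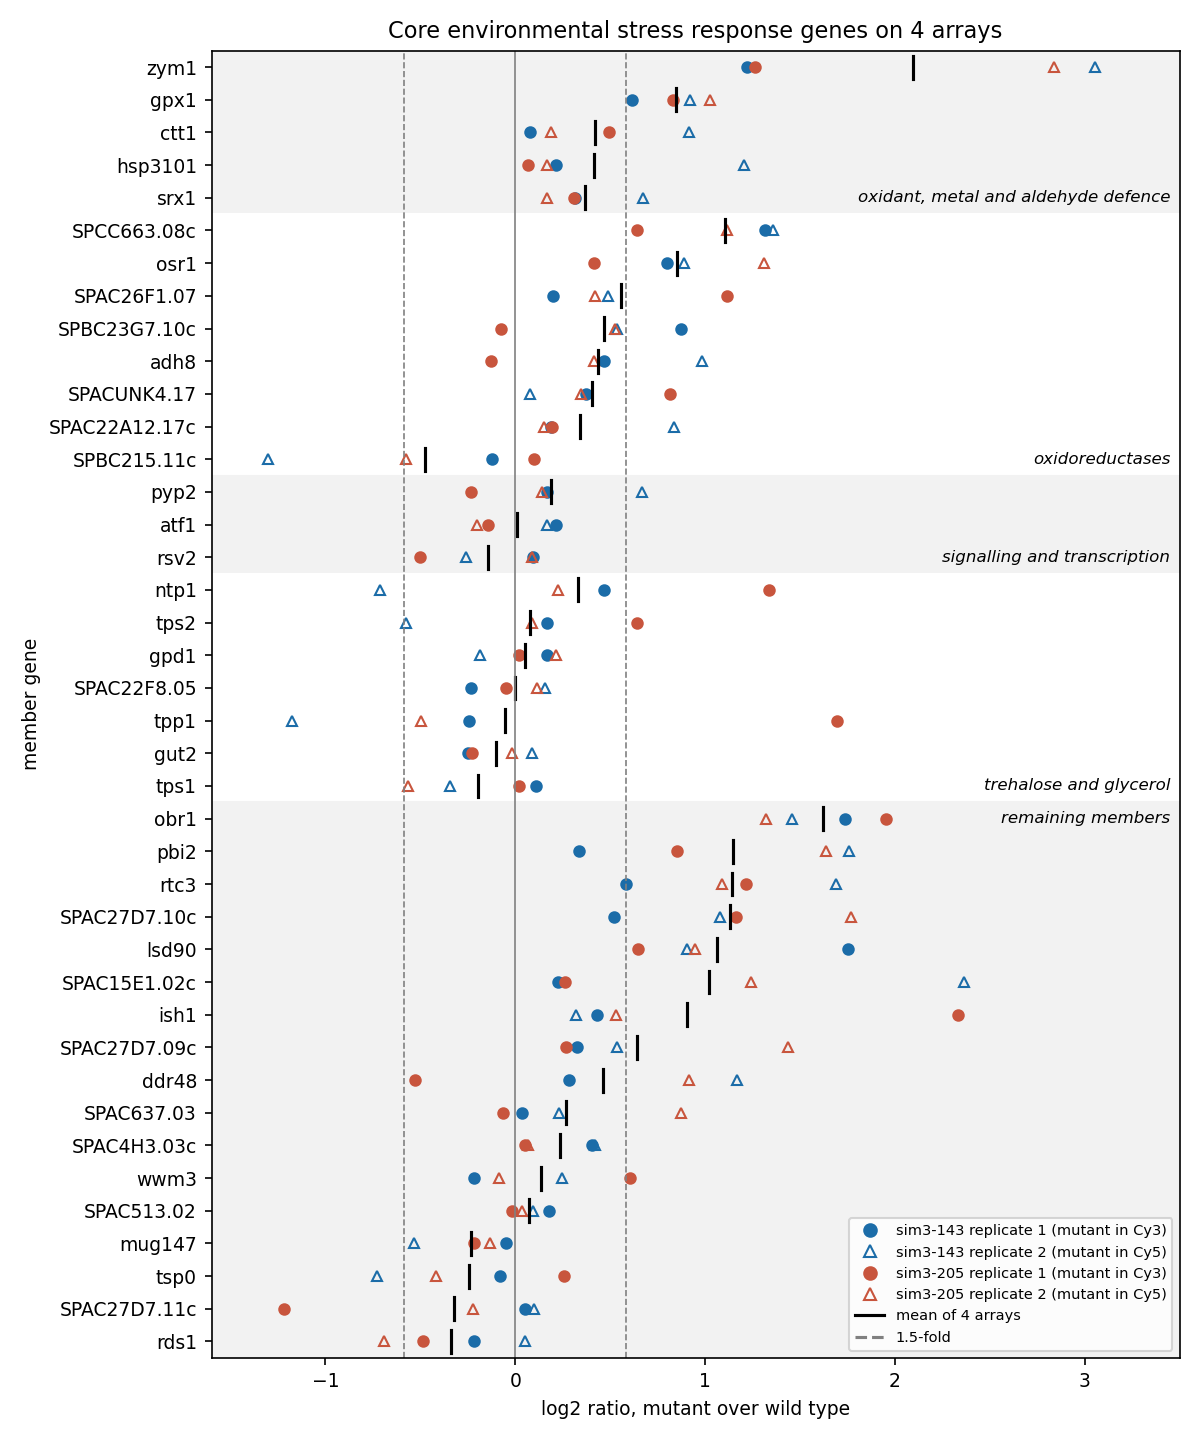
log2 ratio of mutant over wild-type (x axis) of the 40 measured members (y axis), ordered by role and by mean, on each of the 4 arrays (points), with the mean of the 4 arrays (bar) and the 1.5-fold limits (dashed lines). The members of oxidant, metal and aldehyde defence are above 0 on every array, while those of signalling and of trehalose and glycerol metabolism lie on both sides of 0.

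The 3 members of the signalling and transcription group were near wild-type. Their means over both alleles were between -0.14 and 0.19, and none was past 1.5-fold in either allele. For *atf1*, the transcription factor of the response, the log2 ratios were 0.21 and 0.17 on the *sim3-143* arrays and -0.14 and -0.20 on the *sim3-205* arrays. The alleles thus lay on opposite sides of wild-type by small amounts, and the difference of -0.36 ± 0.21 (SE) was not called by limma (adjusted p = 0.704). *pyp2*, which encodes a tyrosine phosphatase of Sty1, was at 0.17 and 0.67 in *sim3-143* and at -0.23 and 0.14 in *sim3-205*. *rsv2*, a zinc-finger transcription factor gene, had a mean of -0.08 ± 0.25 (SD, n = 2 arrays) in *sim3-143* and of -0.21 ± 0.42 in *sim3-205*.

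All 5 members of the oxidant, metal and aldehyde defence group were above wild-type on every array. Their median was 0.71 in *sim3-143* and 0.34 in *sim3-205*, and 2 of them, *zym1* and *gpx1*, were past 1.5-fold in each allele. *zym1* (SPAC22H10.13) encodes a metallothionein, a small protein that binds zinc and other metals. Its log2 ratios were 1.22 and 3.06 on the *sim3-143* arrays and 1.26 and 2.84 on the *sim3-205* arrays. All 8 spots were past 1.5-fold, and in both alleles the array with the mutant in Cy5 was the higher. In net intensity the mutant channel of *zym1* read 3400 and 6320 on the *sim3-143* arrays and 3960 and 7610 on the *sim3-205* arrays, against 1490, 908, 650 and 802 in the wild-type channel of the same arrays. The mean over both alleles was 2.09 ± 0.39 (SE), or 4.27-fold, the third highest of 4833 genes, and was not called by limma (adjusted p = 0.237).

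*gpx1* (SPBC32F12.03c), the glutathione peroxidase gene, differed from wild-type by less. Its log2 ratios were 0.61 and 0.92 in *sim3-143* and 0.83 and 1.03 in *sim3-205*. The 4 arrays had an SD of 0.17, which is small beside the mean of 0.85 ± 0.12 (SE), or about 1.8-fold (limma adjusted p = 0.146). The other members of the group were *ctt1* (catalase), *srx1* (sulfiredoxin, which repairs over-oxidized peroxiredoxin) and *hsp3101* (an Hsp31-type protein that detoxifies methylglyoxal). Their means over both alleles lay between 0.37 and 0.42. Each was highest on *sim3-143* replicate 2, at 0.92 for *ctt1*, 0.68 for *srx1* and 1.20 for *hsp3101*, and the remaining arrays gave between 0.07 and 0.49. None of these 3 was past 1.5-fold by the count of spots.

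Of the 8 measured dehydrogenases and other oxidoreductases, 7 had a mean over both alleles above 0, and 5 were above wild-type on every array. The group median was 0.61 in *sim3-143* and 0.40 in *sim3-205*. SPCC663.08c, a short-chain dehydrogenase gene, stood at 1.31 and 1.35 in *sim3-143* and at 0.64 and 1.11 in *sim3-205*. It was past 1.5-fold on each array, and its *sim3-143* arrays agree more closely (SD 0.03) than its *sim3-205* arrays (SD 0.33). The mean over both alleles was 1.11 ± 0.13 (SE), or 2.15-fold (limma adjusted p = 0.0949). *osr1* (SPCC663.06c), a second short-chain dehydrogenase gene, was at 0.80 and 0.89 in *sim3-143* and at 0.42 and 1.31 in *sim3-205*. Both *sim3-143* arrays but only one *sim3-205* array were past 1.5-fold, and the mean over both alleles was 0.85 ± 0.17 (SE, limma adjusted p = 0.267). In the gene table no protein-coding gene lies between *osr1* and SPCC663.08c on chromosome III. Whether the probes of these neighbours share sequence was not tested.

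SPBC23G7.10c, whose product is related to old yellow enzyme, was higher in *sim3-143* at 0.87 and 0.53. In *sim3-205* it was at -0.07 and 0.53, so the arrays of both alleles with the mutant in Cy5 gave nearly the same value. SPBC215.11c, an aldo/keto reductase gene, was the lowest of all members. Its log2 ratios were -0.12 and -1.30 in *sim3-143* and 0.10 and -0.57 in *sim3-205*, with a mean of -0.48 ± 0.23 (SE, limma adjusted p = 0.489). In both alleles it was lower on the array with the mutant in Cy5. The other members of the group (SPAC26F1.07, *adh8*, SPACUNK4.17 and SPAC22A12.17c) had means over both alleles between 0.34 and 0.56, and none was past 1.5-fold by the count of spots.

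The 7 members for trehalose and glycerol metabolism did not share this shift. Their median was -0.12 in *sim3-143*, 0.12 in *sim3-205* and 0.00 over both alleles, and none was past 1.5-fold in either allele or on one side of wild-type on every array. Trehalose and glycerol protect cells against heat, desiccation and osmotic stress. *tps1*, which encodes trehalose-6-phosphate synthase, was at 0.11 and -0.34 in *sim3-143* and at 0.02 and -0.57 in *sim3-205*. *tps2* (SPAC3G6.09c) was at 0.17 and -0.58 in *sim3-143* and at 0.64 and 0.09 in *sim3-205*. The values scatter around 0, with the array carrying the mutant in Cy5 the lower in both alleles for both genes.

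*ntp1*, the gene of the neutral trehalase that breaks trehalose down, was at 0.47 and -0.71 in *sim3-143* and at 1.34 and 0.23 in *sim3-205*. *tpp1*, the trehalose-6-phosphate phosphatase gene, was below wild-type on 3 arrays (-0.24, -1.18 and -0.50). It was at 1.69 on *sim3-205* replicate 1, where its spots lie in a grid with unrelated dyes. *gpd1*, for glycerol-3-phosphate dehydrogenase, had means of -0.01 ± 0.25 (SD, n = 2 arrays) and 0.12 ± 0.14 in *sim3-143* and *sim3-205*. The identity of this probe rests on its printed name, since *gpd1* was also in use for a glyceraldehyde-3-phosphate dehydrogenase gene, and a second probe printed as *gpd1-x2* was at -0.51 ± 0.64 and -0.12 ± 0.71. *gut2*, the mitochondrial glycerol-3-phosphate dehydrogenase gene, and SPAC22F8.05 lay between -0.25 and 0.16 on each array.

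Of the 17 remaining measured members, 13 had a mean over both alleles above 0 and 9 were above wild-type on every array. Their median was 0.41 in *sim3-143* and 0.40 in *sim3-205*. *obr1* (SPAC3C7.14c) encodes a flavodoxin-like protein and had the second highest measured mean of the members. It was at 1.74 and 1.46 in *sim3-143* and at 1.95 and 1.32 in *sim3-205*. Each array was at least 2-fold above wild-type. Both *obr1* spots of *sim3-143* replicate 2 were saturated in the mutant channel, so the value of 1.46 and the means that hold it are lower bounds. The measured mean over both alleles was 1.62 ± 0.15 (SE), with a limma adjusted p of 0.0651. No gene had a smaller adjusted p in this comparison, but the adjustment gave this value to other genes as well.

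*pbi2* (SPCC338.12), related to the proteinase B inhibitor of budding yeast, was at 0.33 and 1.76 in *sim3-143* and at 0.85 and 1.64 in *sim3-205*. *rtc3* (SPBC21C3.19), which encodes a protein with an SBDS-type domain, was at 0.58 and 1.69 in *sim3-143* and at 1.22 and 1.09 in *sim3-205*. *lsd90* (SPBC16E9.16c) was at 1.75 and 0.90 in *sim3-143* and at 0.64 and 0.95 in *sim3-205*. The means over both alleles of these 3 genes were 1.15 ± 0.27, 1.14 ± 0.20 and 1.06 ± 0.17 (SE), each more than 2-fold, with limma adjusted p of 0.332, 0.235 and 0.208. The alleles overlap for each of them, and the arrays of *sim3-143* lie further apart than those of *sim3-205*.

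SPAC27D7.09c, SPAC27D7.10c and SPAC27D7.11c, whose systematic IDs follow each other, gave unlike values. The gene table holds no protein-coding gene between the first and the last, and SPAC27D7.10c is not in it. SPAC27D7.10c was at 0.52 and 1.08 in *sim3-143* and at 1.16 and 1.77 in *sim3-205*, so both *sim3-205* arrays were above both *sim3-143* arrays. Its mean was 1.13 ± 0.16 (SE, limma adjusted p = 0.162), and the difference between the alleles was not called (adjusted p = 0.704). With print-tip loess its mean in *sim3-205* fell from 1.47 to 0.78, below the 0.90 of *sim3-143* in that setting. SPAC27D7.09c, the mean of 2 probes, was at 0.33 and 0.53 in *sim3-143* and at 0.27 and 1.44 in *sim3-205*, and 1 array was past 1.5-fold. SPAC27D7.11c was at 0.05 and 0.10 in *sim3-143* and at -1.22 and -0.22 in *sim3-205*. It was among the 3 lowest members, and its difference between the alleles was -0.80 ± 0.37 (SE, limma adjusted p = 0.704).

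SPAC15E1.02c was at 0.22 and 2.36 in *sim3-143* and at 0.26 and 1.24 in *sim3-205*. It was past 2-fold on both arrays with the mutant in Cy5 and on neither array with the mutant in Cy3. *ish1*, whose product is a stress-responsive protein of the nuclear envelope, was at 0.43 and 0.32 in *sim3-143* and at 2.33 and 0.53 in *sim3-205*. The high value comes from a grid with unrelated dyes and from a wild-type channel below background, so it is no exact ratio. The *sim3-205* mean of 1.43 was 0.56 with plain background subtraction, 2.43 without background correction and 0.30 with print-tip loess. With the grids of unrelated dyes left out it was 0.53, from replicate 2 alone. Without the high array no array of *ish1* was past 1.5-fold. *rds1*, a gene known for its response to stress and nutrients, was the only member counted as lower. It was at -0.22 and 0.05 in *sim3-143* and at -0.49 and -0.69 in *sim3-205*, with a *sim3-205* mean of -0.59 ± 0.14 (SD, n = 2 arrays, limma adjusted p = 0.531). With median centring in place of loess, *rds1* was not counted as lower. Nor was it with the names as written (mean -0.17), with all 4 spots needed, or at 2-fold.

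**Figure D3:**
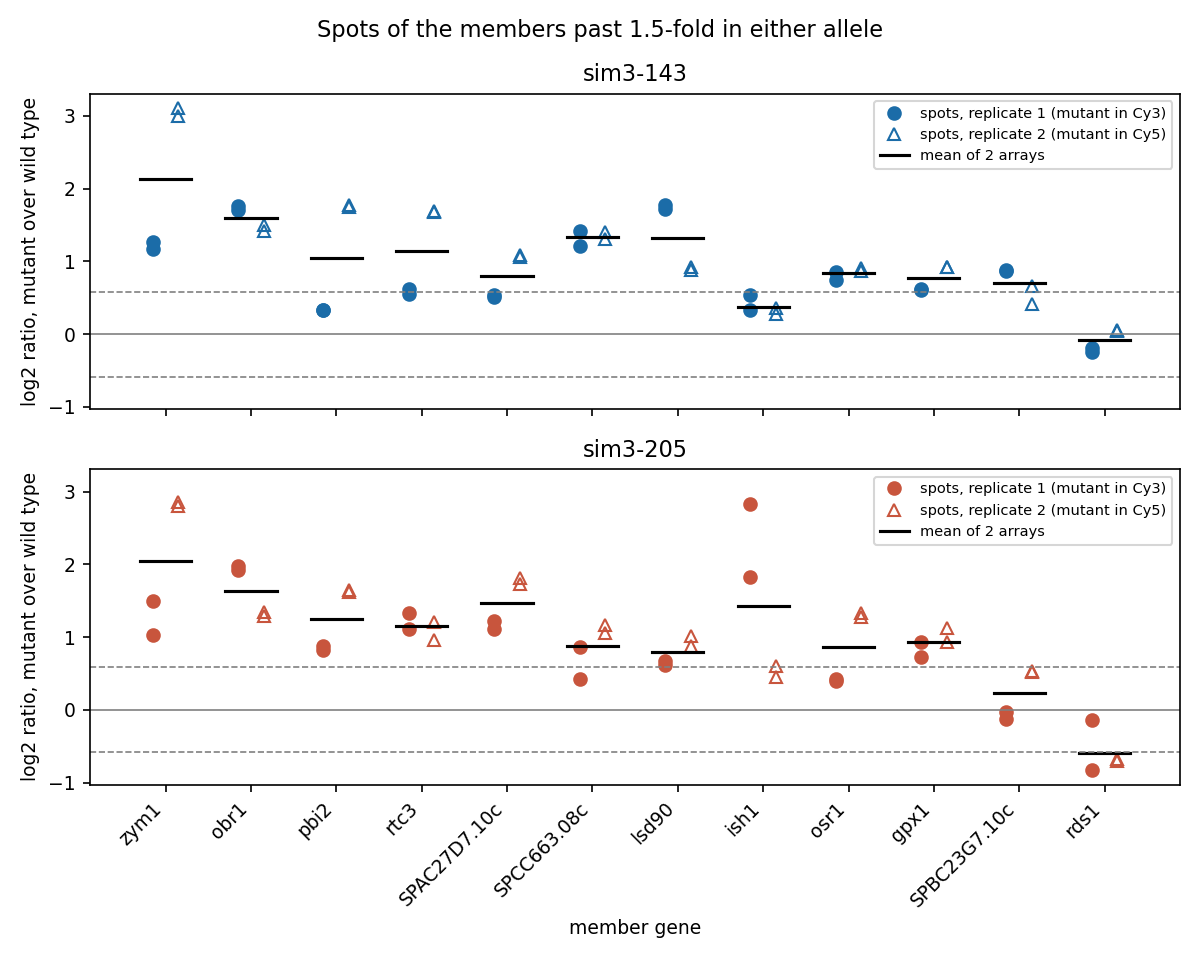
log2 ratio of mutant over wild-type (y axis) at each spot of the 12 members past 1.5-fold in either allele (x axis), for *sim3-143* (upper panel) and *sim3-205* (lower panel). Filled circles are spots of the array with the mutant in Cy3, open triangles those with the mutant in Cy5, bars the mean of 2 arrays and dashed lines 1.5-fold. Spots of 1 array lie close together for most genes, while arrays of 1 allele differ most for *zym1* in *sim3-143* and for *ish1* in *sim3-205*.

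The remaining members of this group had means over both alleles between -0.24 (*tsp0*) and 0.46 (*ddr48*). Their values on single arrays differed widely for *ddr48*, which was at 0.29 and 1.17 in *sim3-143* and at -0.53 and 0.92 in *sim3-205*. For *mug147* the values were -0.05, -0.53, -0.22 and -0.13, each below wild-type and none past 1.5-fold. *wwm3*, which encodes a WW-domain protein and lies in a grid with unrelated dyes, had a mean of 0.14.

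The members' values differed more between the 2 arrays of an allele than those of all genes. The median difference in size between arrays was 0.42 for members and 0.26 for all genes in *sim3-143*, and 0.57 and 0.30 in *sim3-205*. Between the 2 spots of an array it was 0.09 for members and 0.10 for all genes. In 17 of the 40 members (42.5%, against 28.8% of all genes), the array with the mutant in Cy5 was the higher in both alleles. For *zym1* this gap was 1.84 in *sim3-143* and 1.57 in *sim3-205*, for SPAC15E1.02c 2.14 and 0.98, and for *pbi2* 1.43 and 0.78. The gap ran the other way in both alleles for *ntp1* (-1.18 and -1.11). For *obr1* it was -0.63 in *sim3-205*, while in *sim3-143* the saturated spots leave its direction unknown. Since 1 array per allele carries each dye orientation, the dye and the array cannot be told apart within an allele. In *sim3-205* the array platform differs between the same arrays as well, and cannot be told apart from the dye either.

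**Figure D4:**
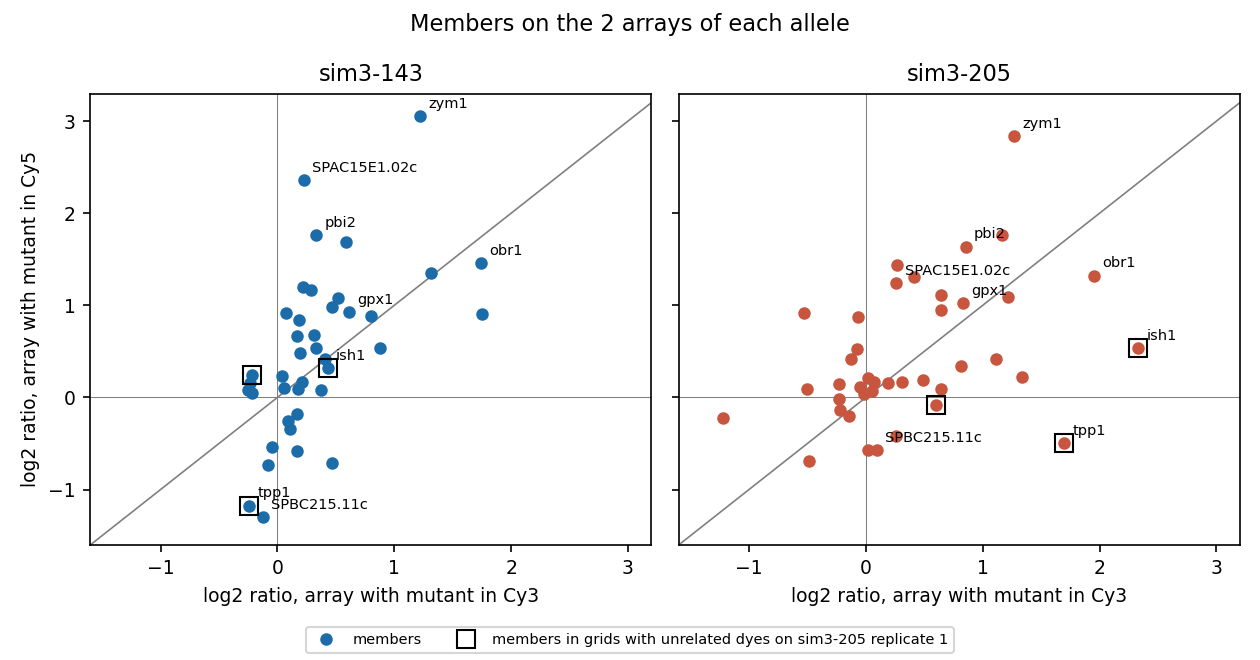
log2 ratio of the 40 members on the array with the mutant in Cy3 (x axis) and on the array with the mutant in Cy5 (y axis) of *sim3-143* (left) and *sim3-205* (right), with the line of equal values. Squares mark the 3 members in grids with unrelated dyes on *sim3-205* replicate 1. *zym1*, *pbi2* and SPAC15E1.02c lie above the line in both alleles, and *obr1*, saturated on the *sim3-143* array with the mutant in Cy5, is plotted below it.

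Genes that act above or beside these targets were mostly near wild-type. Of a list of 22 kinases, phosphatases, transcription factors and other genes of the Sty1 and Pap1 pathways, 21 were measured, and their median over both alleles was 0.10. On every array 5 of them (*wis1*, *wis4*, *prr1*, *rst2* and *tpx1*) were above wild-type and 1 (*csx1*) was below, against 11.6% and 10.5% of all genes. *tpx1* was at 0.59 and 0.39 in *sim3-143* and at 0.31 and 0.42 in *sim3-205*. Its mean was 0.43 ± 0.11 (SE, limma adjusted p = 0.365). None of the 21 was past 1.5-fold in *sim3-143* in either direction, against 2.11% of all genes higher and 1.38% lower. In *sim3-205* 2 were higher and none lower, against 2.55% and 0.617%. The counts of 0 are near these shares, and limma called none. The first was *pap1*, at -0.01 and 0.44 in *sim3-143* and at 0.42 and 0.67 in *sim3-205*, where its mean was 0.55 ± 0.18 (SD, n = 2 arrays, limma adjusted p = 0.544). The second was *sod1*, which encodes the copper-zinc superoxide dismutase, at -0.51 and -0.27 in *sim3-143* and at 1.61 and 0.82 in *sim3-205*.

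The *sod1* values of the alleles did not overlap, but their difference of 1.60 ± 0.33 (SE) was not called by limma (adjusted p = 0.704). *sty1* itself was at -0.06 and -0.35 in *sim3-143* and at -0.36 on *sim3-205* replicate 2. On *sim3-205* replicate 1, *sty1* (1.47) and *rst2* (2.27) lie in a grid with unrelated dyes. *rst2*, a zinc-finger transcription factor gene, was at 0.45, 0.88 and 0.17 on the other arrays.

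The counts depended on single arrays. Without replicate 1 of *sim3-143*, where a gene needed both spots of the array left past 1.5-fold, 15 members were higher (against 9.15% of all genes) and 4 lower (against 7.35%), and without replicate 2 there were 7 (2.32%) and none (2.08%). In *sim3-205* there were 13 higher without replicate 1 (against 4.32% of all genes) and 12 without replicate 2 (against 8.82%), with 1 lower in each case (3.05% and 3.91%). The limma calls in the mean of both alleles also differed with the array left out. In such a fit the single array left of an allele is assumed to vary as those of the other allele do, so its calls are not counted here.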

How the data were processed

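Total RNA of mutant and wild-type cells was compared on 4 two-colour spotted arrays. In the scanner files deposited by the authors, each spot has a median intensity and a median local background per dye, not normalized. They also deposited log2 ratios made in GeneSpring with a Lowess normalization. The deposited ratios' scale and direction were found from the scanner intensities. Their medians over gene spots, moved back to their spots, were 0, 0.04, -0.05 and 0.01 for *sim3-143* and *sim3-205* replicates 1 and 2. How background entered them is not given in the sources used here.

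Intensities were corrected with normexp (offset 50), and each file was then normalized by loess (span 0.3), with limma 3.58.1 in R 4.3.3. The sign of arrays with Cy3-labelled mutant was turned to give mutant over wild-type throughout. Empty, control and missing products, 8 to 60 spots per array with certain codes of the image software, and 73 spots with a Cy3 intensity of 0 on *sim3-205* replicate 1 were left out. Spots of an array and probes of 1 name were averaged. The limma fit (lmFit, then eBayes) held all 4 arrays and had 1 coefficient per allele. Adjusted p below 0.05 was the threshold. The steps were tested on simulated data with the same known changes in both alleles, a chosen spread between arrays and no grids with unrelated dyes. That test cannot show how many true changes the fit finds at the spread of these arrays. With 2 arrays per allele no exact test per gene can reach that threshold, and the number of arrays limits the precision.

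Members and lists were chosen with earlier results of these data known. Array values are given for members past 1.5-fold in either allele or in the mean of both with every array on one side, and for the 3 highest and lowest. Values of other members, *gpd1-x2*, *sty1*, *rst2* and *tpx1* were added after they were seen. Gene names are those of the files and of a gene table of assembly ASM294v3. No sequences were analysed here. Alternatives were other background corrections and normalizations, filters on spots and grids, deposited ratios, names as written, each array left out, other cutoffs and other models. Python 3.11.15, pandas 2.3.3, numpy 2.4.6 and matplotlib 3.10.9 made counts and figures.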

Additional observations from a re-analysis of the deposited data

Results flagged for a closer look

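In 2 of the 40 members and in 3 of the 21 measured genes of the pathway list, both *sim3-143* arrays lay on one side of wild-type and both *sim3-205* arrays on the other, which held for 12.3% of all genes. The difference, *sim3-205* minus *sim3-143*, was -0.36 ± 0.21 (SE) for *atf1* and -0.80 ± 0.37 for SPAC27D7.11c. In the pathway list it was -0.44 ± 0.22 for *mcs4*, 0.41 ± 0.22 for *mak1* and 1.60 ± 0.33 for *sod1*. limma called none of these differences (adjusted p = 0.704 for each, with unadjusted p between 0.00429 for *sod1* and 0.138 for *atf1*). For SPAC27D7.11c the size rests on *sim3-205* replicate 1 at -1.22, since replicate 2 was at -0.22.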

How the results depend on the processing

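The counts of members past 1.5-fold, 8 in *sim3-143* and 9 in *sim3-205*, stayed within 1.5 times under the other background corrections, normalizations and filters, where they ran from 6 to 8 and from 6 to 10. They were 14 and 15 by the mean of the spots, 3 and 4 at 2-fold, 1 and 4 with the names as written, and 2 and 4 with the deposited log2 ratios, which gave 16 members enough spots. Leaving out an array gave 7 to 15 and 12 to 13. The members' median in *sim3-205*, 0.25, was 0.37 with plain background subtraction, 0.32 without background correction, 0.18 with print-tip loess, 0.32 with median centring, 0.50 with the deposited ratios and 0.17 with the names as written. With an array left out the medians were 0.21 to 0.45 in *sim3-143* and 0.20 to 0.26 in *sim3-205*, and each stayed above 0. limma called 4 members in *sim3-143* when each allele was fitted alone (0.952% of all genes) and 4 in the mean of both without the grids of unrelated dyes (0.523%). It called no member under any other setting that kept all 4 arrays. With an array left out, the number of calls differed with the array, for members and for all genes. Such a fit rests on 1 array of an allele, so its calls are not counted here. Without *sim3-205* replicate 2, the only *sim3-205* array left is the one with the grids of unrelated dyes, which hold *ish1*, *tpp1* and *wwm3*. Leaving out *tpp1* and the 3 members found by a current symbol or synonym, a choice made after seeing the data, changed no limma call and gave 7 and 8 members past 1.5-fold. The shares of all genes were 2.11% and 2.55%. The labels give no replicate numbers that pair the arrays. A dye coefficient for each gene, which equals a replicate block by dye orientation, left 0 members called in each comparison. No member past 1.5-fold turned its direction under these settings. Cross-hybridization between related probes was not tested, and 2 arrays per allele limit every value.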
